A study of Rattus norvegicus with 4 samples.

Results

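Electrical stimulation of ischemic rat skeletal muscle was examined by setting the array titled ischemia + ES (ES below) over the array titled ischemia. Both come from a set of 4 single-colour Affymetrix arrays, 1 per group, of rats of the strain F344/DuCrlCrlj: sham, ischemia, ischemia + ES and ischemia + exercise. The 3 ischemic groups share the ischemia, so ES and exercise are additions to it and the sham group alone lacks it. The series concerns intermittent claudication and muscle contraction driven through the nerve, and asks what ES and exercise alter in the ischemic limb. The muscle sampled, the age and sex of the rats, the way ischemia was made, the current and schedule of ES, the time of sampling and the number of rats per array are not stated in the labels used here. The deposited values are MAS5 signals, a linear brightness per probe set. Each gene was read from its brightest probe set, signals under the pooled median of the 4 arrays (30.1) were raised to that floor, and the log2 ratio of ES over ischemia was taken. The genes described are those at least 2-fold apart, 310 of the 9860 genes with a ratio. With 1 array per group no difference below has a replicate check, and no test between the conditions was possible: each value compares these arrays and says nothing of the spread between rats.

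Skeletal muscle takes its character from the activity of its motor nerve. Slow fibres, which are kept in near-continuous use, carry slow isoforms of myosin and troponin, much mitochondrial enzyme and many capillaries, and fast glycolytic fibres rely on glycogen and short bursts. Developing and regenerating fibres use embryonic and perinatal myosins and spread acetylcholine receptors over their surface until the nerve restricts them to the junction. Chronic low-frequency stimulation of a motor nerve is a classical means of turning fast muscle towards slow, with growth of its capillaries. Capillaries are tubes of endothelial cells on a basement membrane, wrapped by pericytes.

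The 4 arrays were close in overall brightness, with median signals of 29.0 to 31.8 and 49.25% to 51.08% of 31099 probe sets above the floor. The 11 defining markers of skeletal muscle, such as the creatine kinase gene Ckm and the actin gene Acta1, were all within 2-fold between ES and ischemia, with a median log2 ratio of 0.17 (-0.007 under quantile normalization). The actin 3′ over 5′ signal ratio, a measure of RNA integrity, was 5.94 on the ES array and 3.81 on the ischemia array, the highest and lowest of the 4. The same ratio for GAPDH was 1.26 and 1.04. The share of these RNA quality values in the differences below was not tested. In whole muscle, more cells of a type and more RNA per cell cannot be told apart.

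With ES, 230 genes were at least 2-fold higher than with ischemia, which is 2.33% of the 9860, and 80 were at least 2-fold lower, which is 0.811%. The median log2 ratio of all genes was 0.062, with 5656 ratios above 0 and 4204 below. Every list count below is to be read beside these values and the shares of 2.33% and 0.811%. Past 3-fold there were 25 higher and 9 lower genes, and past 4-fold there were 10 and 2. For 38 of the higher and 7 of the lower genes 1 of the arrays lay at the floor, so the fold is a lower bound and is given as "at least". Dim genes made up part of the higher set: in 89 of the 230, against 17 of the 80 lower genes, even the brighter array was under 4 times the floor. Among the 6415 brighter genes 2.198% were higher and 0.982% lower. The genes nearest the limit were Them4, Slc19a2 and Eln at 2.002-fold to 2.003-fold higher just inside and Slpi at 1.996-fold just outside, with Ints13 at 2.002-fold lower inside and Cd1d1 at 1.999-fold outside.

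**Figure D1:**
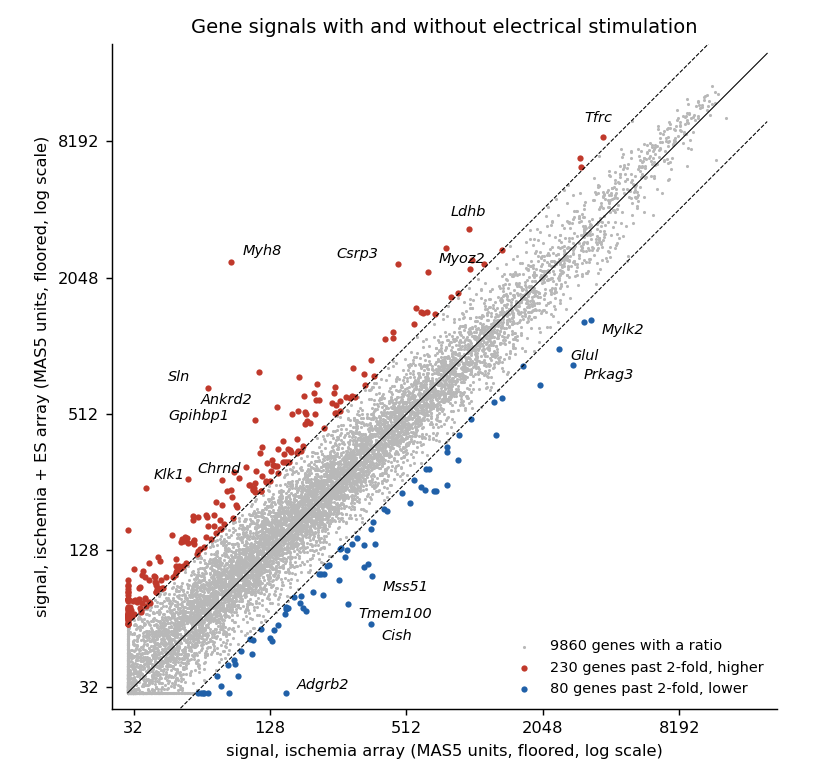
Signal of each of 9860 genes on the ES array (vertical) against the ischemia array (horizontal), both floored and on log scales, 1 array each. The solid line marks equal signals and the dashed lines 2-fold; red points are the 230 higher genes and blue points the 80 lower ones, with Myh8 farthest above and Cish, Adgrb2 and Mss51 among the farthest below.

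A second probe set above the floor gave a reading that the choice of genes did not use. Of the 42 higher genes that had one, 32 had all their other probe sets on the same side and 13 had all of them past 2-fold. The 51 other probe sets of the higher genes had a median log2 ratio of 0.53, against -0.049 for the 2972 other probe sets of all genes. All 18 lower genes with another probe set had each of them on the lower side, with a median of -0.92 over 26 probe sets. In 10 higher genes a second probe set pointed the other way: Cops7b, Hspb7, Igsf1, Palmd, Pld1, Rab3a, Srgap2, Trim47, Tubb4a and Zfp593.

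Of the 144 genes described below with a fold past 2-fold, 94 stayed past it in each alternative that gave them a value. Reading a gene from the mean of all its probe sets ended the call for 28: Apln, Aplnr, Aqp1, Arhgap27, Car4, Cd93, Col12a1, Eef2k, Elk3, Eln, Gata2, Gpcpd1, Hspb7, Igf2, Ints1, Mnda, Mx2, Myh11, Myl2, Nrp2, Palmd, Pxdn, Rad54l2, Rora, Sez6l2, Sfrp4, Tmem100 and Tnnt2. With the floor at the 70th percentile 18 were no longer past 2-fold: Adgrb2, Bcl6b, Car4, Col12a1, Dlk1, Hhex, Hpdl, Il2rg, Isg15, Lmod1, Mmp12, Nrp2, Oasl, Rrad, Sfrp2, Tnnt2, Tp53i11 and Usp18. Dimmer genes had no value at that floor. Quantile and loess normalization each ended the calls of Eln, Gata2, Ifit3, Junb, Lck, Prkaa2, Spp1 and Tie1, and loess also those of Dusp26 and Mki67.

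The sham and exercise arrays, which the ratio did not use, showed whether ES or ischemia stood apart. Of the 230 higher genes, ES had the highest signal of the 4 arrays in 200, where it had the highest in 40.64% of all genes. Of the 80 lower genes ES had the lowest signal in 71, against 25.73% of all genes. These shares rest partly on the choice of genes, since ES had to be far from ischemia. In 90 higher genes ES was at least 2-fold above each of the other arrays. In 21 higher genes it was the ischemia array that was at least 2-fold below each of the others, and these were Ampd3, Ankrd2, Bex1, Casq2, Crym, Csrp3, Dapk2, Enah, Fgfrl1, Galnt5, Hspb7, Ldhb, Lmcd1, Lmod2, Mid1ip1, Myl2, Myoz2, Rrad, Sln, Tnni1 and Tpd52l1. The 21 held all 4 higher genes of the slow contractile list and all 4 of the Z-disc, LIM and stretch list, Myoz2 being on both. Genes outside these lists differed: the LIM genes Fblim1 and Ablim3 were among the 90, and Actn2 was in neither class. The 90 held all 3 higher developmental contractile genes. They also held 5 of the 13 higher endothelial markers, Gpihbp1, Sox18, Pcdh17, Cldn5 and Cd93, the other 8 being in neither class. That share is close to the 90 of all 230 higher genes, so it does not set these markers apart. Among lower genes ES stood at least 2-fold below each other array in 22, and ischemia stood at least 2-fold above each other array in 5.

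**Figure D2:**
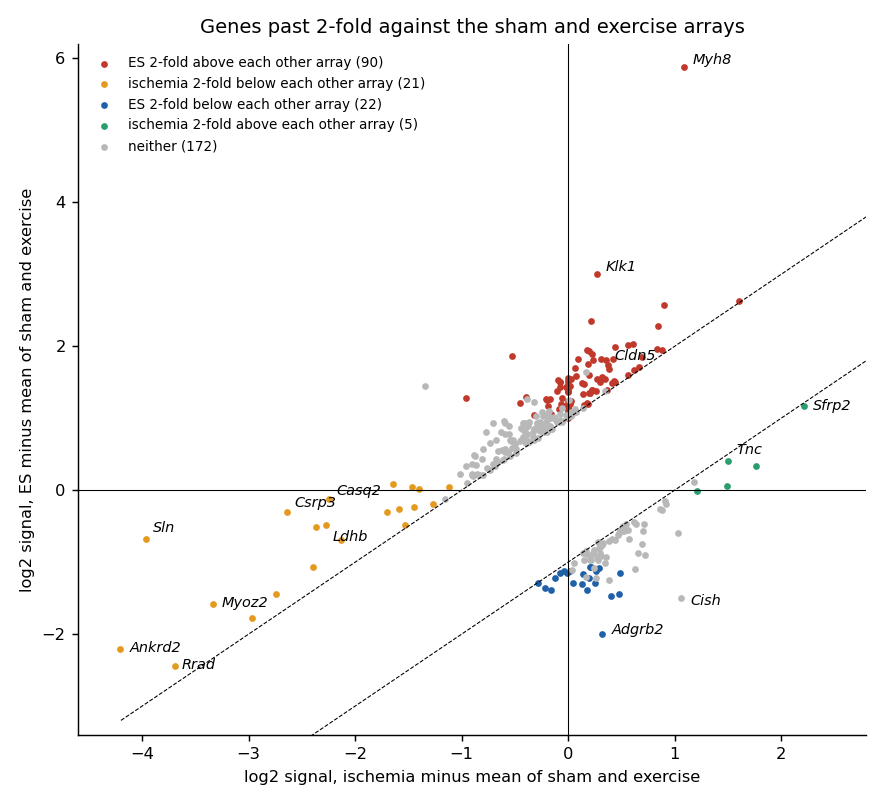
Each point is 1 of the 310 genes past 2-fold, placed by its log2 signal on the ischemia array (horizontal) and the ES array (vertical), each minus the mean log2 signal of the sham and exercise arrays. Dashed lines mark a ratio of 2-fold; Myh8 and Klk1 lie high on the vertical axis, where ES alone was high, and Sln, Ankrd2, Myoz2 and Rrad lie far left, where ischemia was low.

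The largest difference was in a myosin of developing muscle, Myh8. In every set of signals below the order is sham, ischemia, ES and exercise. Myh8, the perinatal myosin heavy chain, had signals of 36.9, 86.4, 2393 and 44.99, and was 27.7-fold higher with ES than with ischemia. Myh3, the embryonic heavy chain, had signals of 169.8, 179.8, 617 and 149.6, a 3.43-fold difference. Tnnt2, the troponin T of heart and fetal skeletal muscle, was dim at 34.1, 37.5, 113 and 20.7 and was 2.999-fold higher. For all 3 the ES array lay alone above the other arrays, which were close to one another except that Myh8 was also above the sham and exercise arrays with ischemia. Of the 7 developmental contractile genes with a ratio these 3 were higher and 0 lower, with a median of 0.70 against 0.062 for all genes. The others were Myl4, the embryonic light chain, at a log2 ratio of 0.70 and the stretch-responsive Ankrd1 at 0.65. The alpha-actin gene Acta1 was at 0.30 and Mybph, myosin binding protein H, at -0.86. Acta1 is also among the defining markers of skeletal muscle above, so the list's count and median are not of developmental genes alone.

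Regulators of muscle formation were divided. Myog, the transcription factor myogenin that switches myoblasts to differentiation, had signals of 228, 159, 514 and 192 and was 3.23-fold higher with ES. Dlk1, a membrane protein of the Notch family found in fetal and regenerating muscle, had 24.1, 31.99, 106 and 23.4 and was 3.33-fold higher. Igf2, the fetal growth factor, had 408, 802, 1680.0 and 466 and was 2.09-fold higher. ES was the highest array for each, and for Igf2 the ischemia array was also above sham and exercise. Of 22 myogenic and satellite cell genes with a ratio these 3 were higher and 0 lower, with a median of 0.29. Myod1, the determination factor, had a log2 ratio of -0.26, Myf6 0.01, and Mymk, which drives myoblast fusion, 0.66. Musk was at or under the floor on both arrays.

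**Figure D3:**
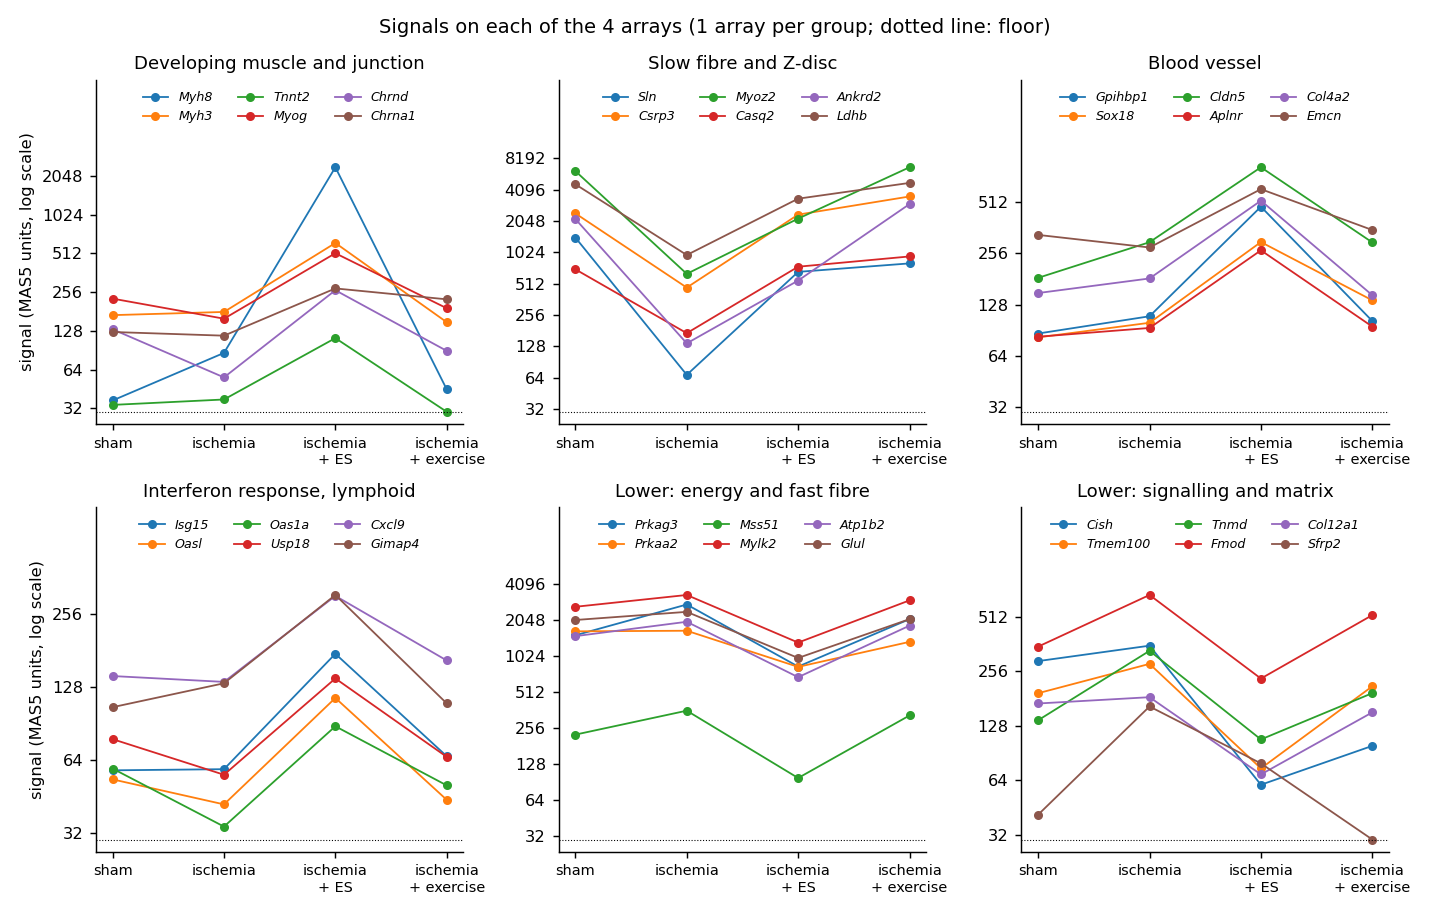
Signals of genes named in the text on the sham, ischemia, ischemia + ES and ischemia + exercise arrays, in MAS5 units on a log scale with the floor as a dotted line; each line is 1 gene and each point 1 array. In the developing-muscle, vessel and interferon panels the ES points form a peak, and in the slow-fibre panel the ischemia points form a trough. In the lower panels the ES points are the lowest except for Sfrp2, where ES lies under ischemia but above sham and exercise.

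The acetylcholine receptor of the neuromuscular junction is a pentamer in which the gamma subunit of fetal muscle gives way to epsilon in the adult. Chrnd, its delta subunit, had signals of 132, 55.7, 265 and 89.6 and was 4.76-fold higher with ES. Chrna1, the alpha subunit that binds the transmitter, had 126, 118, 274 and 225 and was 2.33-fold higher. ES was highest for both, although exercise was close behind for Chrna1. Chrne, the epsilon subunit, was at the floor with ischemia, with a ratio in log2 of at least 0.88, the beta subunit Chrnb1 was at -0.03, and the gamma subunit Chrng was at or under the floor on both arrays. Of the 16 junction genes with a ratio 3 were higher, Myog among them, and 0 lower, with a median of 0.37.

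Promoter sequence is shown for the genes of this group that carry a muscle motif in the 250 bases before their RefSeq start (GRCr8). The E-box CAGCTG, bound by myogenic factors, was present in 11.97% of 33469 such windows, and CTANNNNTA, a loose form of the MEF2 motif, in 20.02%, both strands searched. Chrna1 held the E-box at positions -75 and -27 before the start, and Myog held the MEF2 form at -83, while Myh3 held it at -158. The matches are in capitals, and the stretches are on chr3:78877355-78877448 (minus strand), chr13:48297373-48297421 (plus) and chr10:52269007-52269055 (plus). Chrnd, Myh8 and Tnnt2 had no match to the motifs searched for their groups in this window.
Chrna1: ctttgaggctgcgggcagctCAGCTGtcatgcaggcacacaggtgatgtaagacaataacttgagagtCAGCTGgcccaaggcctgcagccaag
Myog: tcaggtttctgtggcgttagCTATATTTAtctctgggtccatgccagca
Myh3: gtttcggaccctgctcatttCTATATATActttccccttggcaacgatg
A match describes these letters and was not tested as a binding site. For Chrna1 and Myog the signals on the ES array were the highest of the 4, as given above.

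Of 10 slow contractile genes 4 were at least 2-fold higher with ES, and 3 of the 4 past 2-fold stayed under the sham and exercise arrays. Myoz2, a Z-disc protein of slow and cardiac muscle, had signals of 6181, 637, 2160.3 and 6725 and was 3.39-fold higher with ES than with ischemia. Myl2, the slow regulatory light chain, had 6516, 995, 2455 and 6814, a 2.47-fold difference. Tnni1, slow troponin I, had 6929, 977, 2224 and 8435 and was 2.28-fold higher, and a second probe set gave a log2 ratio of 1.44. In these 3 the ES signal lay between the ischemia array and the other arrays, at less than the sham level. Casq2, the calcium store protein of slow and cardiac reticulum, had 704, 171, 746 and 936 and was 4.35-fold higher, with its other probe set at 1.93, and here ES was above sham. All 10 slow contractile genes had ratios above 0, 4 were higher and 0 lower, and the median was 0.94. Their summed deposited signal was 66333 with sham, 11603 with ischemia, 23214 with ES and 76603 with exercise. Myh7, the slow myosin heavy chain, had 11340.0, 2970.4, 4827 and 12422, a ratio of 1.62-fold that did not pass 2-fold, and a second probe set gave 0.11 in log2.

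Fast contractile genes differed little: of 16, 0 were higher and 1 lower, and the median log2 ratio was 0.11, or -0.067 under quantile normalization. Myh4, the fastest myosin heavy chain of rat limb muscle, had signals of 12841, 13178, 10366 and 13339 and a log2 ratio of -0.35, Myh1 was at 0.36 and Myh2 at 0.51. The calcium buffer gene of fast fibres, Pvalb, was at -0.82. The lower gene was Mylk2, the kinase that phosphorylates the fast light chain, at 2664, 3345, 1337 and 3014, where ES was the lowest array and 2.50-fold under ischemia, with its other probe set at -0.96.

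Further genes of the contractile cell followed the pattern of a low ischemia array. Sln, sarcolipin, which uncouples the calcium pump of the reticulum, had signals of 1420.0, 68.2, 665 and 802 and was 9.76-fold higher with ES. Csrp3, the muscle LIM protein of the Z-disc, had 2424, 469.9, 2360.4 and 3525 and was 5.02-fold higher. Ankrd2, an ankyrin repeat protein induced by stretch, had 2141, 137, 549 and 2978 and was 4.01-fold higher. Csrp3 with ES reached about the sham signal, while Sln and Ankrd2 were under theirs. Lmod2, which lengthens thin filaments, had 1959.7, 446, 1114 and 2812 and was 2.50-fold higher. Lmcd1, a LIM domain protein that acts on calcineurin signalling, had 1466, 564, 1499 and 1508 and was 2.66-fold higher. Actn2, the alpha-actinin of all fibre types, had 5308, 2972, 6923 and 5524, with ES the highest array and 2.33-fold over ischemia. Rrad, a small GTPase that limits calcium channels, had 459, 49.1, 117 and 883, so ES was 2.39-fold above ischemia and yet far under sham and exercise. Hspb7, a small heat shock protein of muscle, had 3546, 767, 2754 and 4396 and a 3.59-fold difference that a second probe set, at -0.042 in log2, did not show.

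Of 26 Z-disc, LIM and stretch genes 4 were higher and 0 lower, with a median of 0.39. Fhl1 was at a log2 ratio of 0.99 and the small muscle protein gene Smpx at 0.99, just inside 2-fold, and Pdlim7 was lowest at -0.92 with its other probe set at 0.63. Of 28 calcium handling genes only Sln and Casq2 were higher and 0 were lower, and 20 had ratios below 0, giving a median of -0.17. These included the dihydropyridine receptor subunit Cacna1s at -0.48, the junctophilins Jph1 at -0.52 and Jph2 at -0.46, and the release channel Ryr1 at -0.09. The slow pump gene Atp2a2 was at 0.75 and its inhibitor phospholamban, Pln, at 0.83.

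Myoz2 and Casq2 both held the MEF2 form in the window before their start, shown in capitals for these genes because both stood far below the other arrays with ischemia. In Myoz2 it began at positions -77, -53 and -52, on chr2:213852802-213852875 (minus strand), and in Casq2 at -148, on chr2:192214388-192214436 (plus). Of the 4 higher slow contractile genes 3 had a window and these 2 a match, Tnni1 having none, beside 20.02% of all windows.
Myoz2: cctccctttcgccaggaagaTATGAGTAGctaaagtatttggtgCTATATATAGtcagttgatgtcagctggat
Casq2: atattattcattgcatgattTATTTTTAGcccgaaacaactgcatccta
Overlapping matches in Myoz2 run together as 1 stretch of capitals, and no factor's binding was measured in these samples.

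Endothelial markers made up the list with the most genes past 2-fold. Of 34 with a ratio 13 were at least 2-fold higher and 0 lower, 33 had ratios above 0, and the median log2 ratio was 0.85 against 0.062 for all genes. Their summed signal was 9649.7 with sham, 9542 with ischemia, 17166 with ES and 10090.0 with exercise, so ES alone stood out. On the ischemia array 2 of them, Btnl9 and Pcdh17, were at the floor, and 0 were on the ES array. The actin 3′ over 5′ ratio, 5.94 with ES and 3.81 with ischemia, was also higher with ES, and its part in this result was not tested.

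The higher markers have different roles in the vessel wall. Gpihbp1, which anchors lipoprotein lipase on the capillary wall, had signals of 86.8, 109.6, 482 and 103 and was 4.40-fold higher. Cldn5, the main claudin of endothelial tight junctions, had 184, 298, 821 and 297 and was 2.75-fold higher. Pecam1, a junctional adhesion molecule, had 249, 296, 616 and 321 and was 2.08-fold higher. ES was the highest array in all 3, and the other arrays lay closer to one another. Cd93, a surface lectin of endothelium, had 347, 446, 1179.7 and 436 and was 2.65-fold higher, although a second probe set gave only 0.10 in log2. Egfl7, a secreted endothelial factor, had 198, 169, 396 and 217 and was 2.35-fold higher, with its other probe set at 1.12. Emcn, the sialomucin endomucin of capillaries and veins, had 329, 278, 611 and 352 and was 2.20-fold higher. Ecscr, an endothelial chemotaxis regulator, had 197, 193, 469 and 242 and was 2.43-fold higher. Again ES was the highest array for each of these 4. Palmd, palmdelphin, had 932, 591, 1444 and 685 and was 2.44-fold higher, with other probe sets at 0.48 and -0.25. Aqp1, the water channel of capillaries and red cells, had 1105, 863, 1749 and 1056 and was 2.02-fold higher, with its other probe set at 0.36. At the floor with ischemia, Btnl9 at 51.4, 28.6, 94.6 and 25.8 was at least 3.14-fold higher. Pcdh17, a protocadherin, at 22.5, 15.5, 88.8 and 14.6 was at least 2.95-fold higher, with other probe sets at 1.13 and 1.09. The only marker with a ratio below 0 was Plvap, the diaphragm protein of fenestrae, at 157, 256.02, 238 and 253 and a log2 ratio of -0.10. The VEGF receptor Flt1 at 0.02, Tspan7 at 0.03 and endoglin, Eng, at 0.07 were also near 0.

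**Figure D4:**
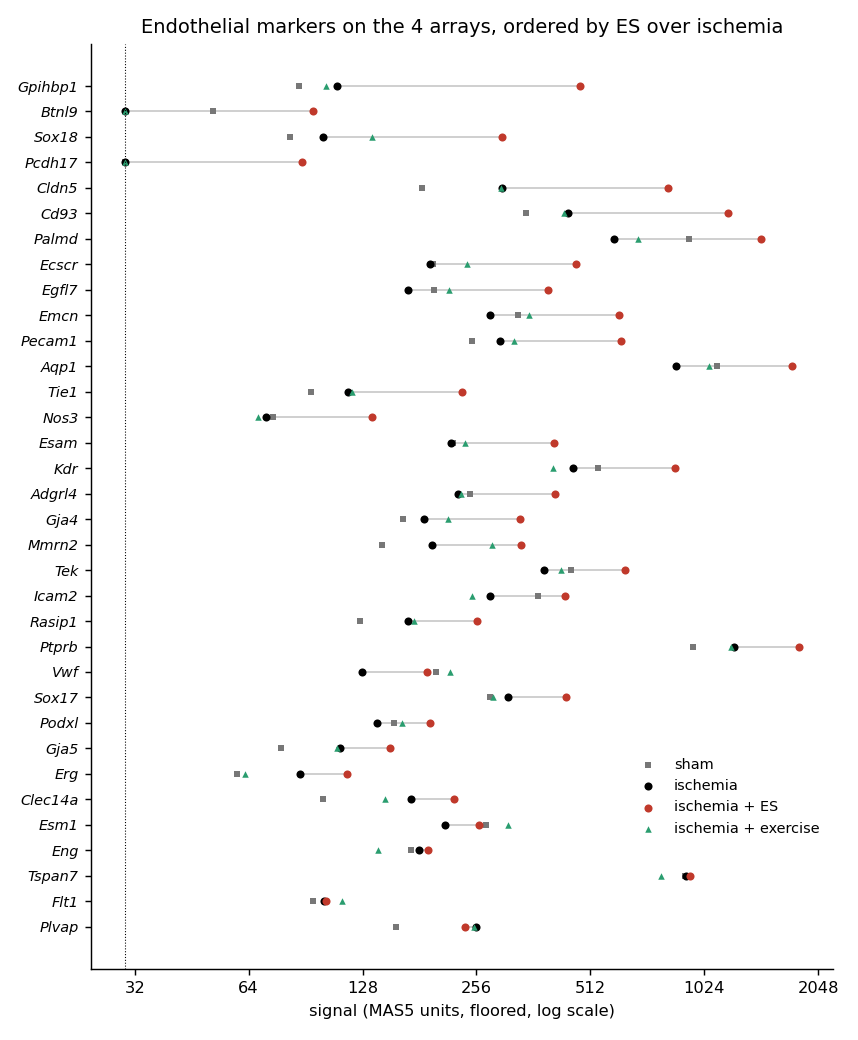
Signals of the 34 endothelial markers on each of the 4 arrays (1 array per group), in MAS5 units on a log scale with the floor as a dotted line, ordered from the highest to the lowest ratio of ES over ischemia. The red ES points lie to the right of the ischemia points for 33 markers, and the sham and exercise points lie mostly near ischemia.

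Transcription factors of endothelium were also among the higher genes, and apart from Sox18, Sox17 and Erg, which are on the marker list, they were picked out after their values were seen. Sox18, which acts in vessel and lymphatic development, had signals of 82.4, 100.3, 299 and 136 and was 2.98-fold higher. Its relative Sox7 had 223, 248, 516 and 321 and was 2.08-fold higher. Hhex, a homeobox factor of early endothelial and blood precursors, had 80.9, 52.3, 143 and 73.04 and was 2.73-fold higher. Elk3, an ETS-family factor, had 295, 369, 753 and 362 and was 2.04-fold higher, with other probe sets at 1.08 and 0.53. Bcl6b had 94.8, 72.05, 163 and 81.7 and was 2.27-fold higher, with 3 other probe sets between 1.56 and 1.92. Gata2, a factor of endothelium and blood progenitors, had 88.4, 48.6, 100.2 and 84.5 and was 2.06-fold higher. ES was the highest array in these 6 genes, and sham was nearest to it for Gata2. Not all such factors passed 2-fold, Sox17 being at 0.51, Erg at 0.41, the venous factor Nr2f2 at -0.10 and the flow-induced Klf4 at -0.53.

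Receptors and ligands of vessel growth were higher in part. Of 29 with a ratio 7 were higher and 0 lower, 25 had ratios above 0, and the median was 0.60. Aplnr, the apelin receptor of sprouting vessels, had signals of 83.1, 93.5, 267 and 95.3 and was 2.86-fold higher. Its ligand Apln had 152, 149, 314 and 170.2 and was 2.10-fold higher, with its other probe set at 0.47. Cxcr4, the receptor for Cxcl12 on tip cells and leukocytes, had 93.2, 185, 512.1 and 290.5 and was 2.77-fold higher, and both other probe sets were past 2-fold at 1.30 and 1.64. For Aplnr and Apln the other arrays were alike, and for Cxcr4 ischemia and exercise were already above sham. Plxnd1, a semaphorin receptor of endothelium, had 133, 145, 391 and 155 and was 2.69-fold higher. Nrp2, a co-receptor for semaphorins and VEGF-C, had 85.8, 72.7, 184 and 108 and was 2.52-fold higher. Ramp2, which makes the calcitonin-receptor-like receptor bind adrenomedullin, had 257, 259.9, 527 and 348 and was 2.03-fold higher. Tie1, the orphan receptor beside the angiopoietin receptor, had 93.5, 117, 235 and 120.1 and was 2.01-fold higher. The main VEGF receptor Kdr was at 0.90 and the angiopoietin receptor Tek at 0.71. Among ligands Vegfa had 721, 557, 843 and 764, a 1.51-fold difference with its other probe set at 0.34, and Vegfb was at 0.84. Nos3, endothelial nitric oxide synthase, had 74.1, 71.01, 136 and 67.6 and was 1.91-fold higher, short of 2-fold. Of other secreted factors, Cxcl12 was at 0.23, Fgf2 at -0.59 as a bound, and Thbs2, an inhibitor of vessel growth, at -0.51. Ligands and receptors did not separate, since Apln was past 2-fold and the VEGF receptor Flt1, given above, was near 0.

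Targets of the hypoxia-inducible factors had a median of -0.17 over 20 genes, with 0 past 2-fold in either direction. Hif1a itself had signals of 589.8, 687, 644 and 723 and a log2 ratio of -0.094. Adm, the vasodilator adrenomedullin, was at 0.84, and Ankrd37, Pfkfb3 and P4ha1 were at -0.96, -0.82 and -0.69.

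Around the capillary, 3 basement membrane genes were higher, and mural cell genes gave both directions. Of 16 basement membrane genes 3 were higher and 0 lower, 15 had ratios above 0, and the median was 0.68. Col4a2 and Col4a1, which together form the common collagen IV trimer, had signals of 149.99, 183, 523 and 146 and of 397, 687, 1416 and 503, 2.86-fold and 2.06-fold higher. Nid2, a nidogen linking laminin to collagen IV, had 219, 246, 634 and 165 and was 2.57-fold higher. For all 3 the ES array was highest, and Col4a1 was also higher with ischemia than with sham. Outside the list Pxdn, the peroxidase that crosslinks collagen IV, had 258, 357, 884 and 292 and was 2.47-fold higher, and Lamb3, a laminin chain, had 82.1, 104, 248 and 85.1 and was 2.38-fold higher. The muscle laminin Lama2 was at -0.05.

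Of 18 pericyte and smooth muscle markers 2 were higher and 1 lower, with a median of 0.51. Mcam, an adhesion molecule of pericytes and endothelium, had 132, 124, 312 and 164 and was 2.51-fold higher, with its other probe set at 0.76. Myh11, smooth muscle myosin, had 529.6, 249.9, 515 and 274, so ES was 2.06-fold above ischemia but about level with sham. Lmod1, a leiomodin of smooth muscle, had 137, 133, 56.9 and 162 and was 2.34-fold lower. The smooth muscle actin gene Acta2 was at 0.06, and the summed signal of the list was 13281 with ischemia and 15536 with ES.

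Interferon-stimulated genes restrict viral replication. Of 32 with a ratio 8 were higher and 0 lower, 29 had ratios above 0, and the median was 0.53. Several carry the interferon-stimulated response element, GAAANNGAAA, close before their start. On either strand this motif occurred in 3.41% of 33469 RefSeq windows of 250 bases (GRCr8). Promoter windows were found for 4 of the 8 genes, and for Ddx60, a helicase gene added after its values were seen, and 4 of these 5 held the motif, Oasl having no match. The stretches are shown because these genes passed 2-fold in the same direction, with the motif in capitals. Oas1a lies at chr12:41330405-41330460 (plus strand, matches at -41 and -35), Ifit3 at chr1:241527262-241527311 (plus, -44), Rsad2 at chr6:48788238-48788287 (minus, -147) and Ddx60 at chr16:33208849-33208932 (minus, -73 and -39).
Oas1a: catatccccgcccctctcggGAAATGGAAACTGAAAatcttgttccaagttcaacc
Ifit3: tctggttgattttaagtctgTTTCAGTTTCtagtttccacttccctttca
Rsad2: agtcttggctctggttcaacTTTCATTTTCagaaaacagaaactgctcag
Ddx60: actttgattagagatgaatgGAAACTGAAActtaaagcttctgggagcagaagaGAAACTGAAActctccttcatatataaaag
In Oas1a the matches overlap and read as 1 run, and in Ifit3 and Rsad2 the motif is on the opposite strand. Their presence is a description and was not tested as a cause.

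Isg15, a ubiquitin-like modifier, had signals of 58.00, 58.6, 175 and 66.3 and was 2.98-fold higher with ES. Usp18, the protease that removes Isg15, had 77.9, 55.6, 138 and 65.9 and was 2.49-fold higher. Oasl, of the oligoadenylate synthetase family, had 53.2, 42.01, 115 and 43.9 and was 2.74-fold higher. In these 3 the sham, ischemia and exercise arrays lay close together and ES lay apart. Oas1a, which makes the activator of RNase L, had 58.95, 34.04, 88.02 and 50.3 and was 2.59-fold higher. Rtp4 had 44.9, 40.1, 90.3 and 55.7 and was 2.25-fold higher. Mx2, a dynamin-like antiviral GTPase, had 21.2, 30.03, 66.2 and 33.3 and was at least 2.20-fold higher. Ifit3, which binds foreign RNA, had 29.5, 34.5, 70.01 and 40.1 and was 2.03-fold higher. These 4, and Oasl as well, were dim on every array, under 4 times the floor. Rsad2, viperin, had 255.7, 123, 255.6 and 102 and was 2.08-fold higher, but its sham signal was level with that of ES. Ddx60 had 77.7, 107, 236 and 111 and was 2.21-fold higher. Of the regulators, Irf7 was at 0.33, Irf9 at 0.37 and Stat2 at -0.05. Antigen presentation genes had a median of 0.11 over 22, with 0 lower. The class I gene RT1-T24-4 alone was higher at 220.1, 186, 475 and 282 (2.56-fold), beside 2.33% of all genes.

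Chemokine and lymphoid genes gave single differences, in both directions. Cxcl9, an interferon-induced chemokine for T cells, had 142, 134, 303 and 164 and was 2.26-fold higher, with its other probe set at 1.01. Ccl5, a chemokine of T cells and platelets, had 24.5, 28.8, 81.6 and 24.02 and was at least 2.71-fold higher, and Ccl21, the lymphatic chemokine, had 61.8, 20.3, 77.9 and 50.3 and was at least 2.59-fold higher. Of 13 cytokine and chemokine genes with a ratio these 3 were higher and 0 lower, with a median of 0.46. Lck, the T cell kinase, had 39.7, 37.5, 76.04 and 32.1 and was 2.03-fold higher. The T cell genes Cd3d, Cd3e, Cd4 and Cd8a and the B cell gene Ms4a1 were at or under the floor on both arrays, and 13 of 19 lymphocyte markers were, with a summed signal over all 19 of 382 with ischemia and 531 with ES. Genes singled out after their values were seen were Gimap4 at 105, 132, 305 and 109 (2.31-fold), Gimap5 at 140.3, 137, 303 and 159.6 (2.22-fold), both GTPases of lymphocytes and endothelium, and Il2rg, the common cytokine receptor chain, at 26.3, 35.3, 104 and 31.8 (2.95-fold). ES was the highest array in each. Ltb, lymphotoxin beta, likewise chosen after its values were seen, had 390.1, 408, 195 and 396 and was 2.09-fold lower, with ES the lowest array.

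Macrophage markers were near balance, with 1 higher and 1 lower of 22, beside 2.33% and 0.811% of all genes. Their median of 0.032 became -0.009 under loess normalization. Spp1, osteopontin, had 58.6, 127.8, 259 and 25.7 and was 2.02-fold higher, while C1qb, a complement chain, had 47.1, 95.4, 45.97 and 54.9 and was 2.08-fold lower. The sister chains C1qa and C1qc were at 0.01 and -0.04. The list's summed signal was 3505 with sham, 8087 with ischemia, 9202 with ES and 4889.9 with exercise, so both arrays stood above sham. Mmp12, macrophage elastase, outside the list, had 7.20, 54.1, 146 and 13.4 and was 2.71-fold higher with ES.

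Genes of fat and oxidative metabolism mostly lay within 2-fold, as did all genes but the 2.33% higher and the 0.811% lower. Of 34 fatty acid uptake and oxidation genes 2 were higher and 0 lower, yet 31 had ratios above 0, with a median of 0.515. Fabp3, the fatty acid carrier of heart and slow muscle, had signals of 5609, 3002, 6316 and 5259 and was 2.10-fold higher, and the other was Gpihbp1 of the capillary. The capillary carrier Fabp4 was at 0.97, the lipase Lpl at 0.81 and the thiolase Acaa2 at 0.96. Fabp4 and Lpl are also genes of fat cells, and the 6 adipocyte markers with a ratio had a median of 0.72, with 1 higher and 0 lower. The adipocyte list's summed signal was 5428 with sham, 3911 with ischemia, 6937 with ES and 5881 with exercise, while the fat-cell hormone gene Adipoq was at -0.34 and Cfd at -0.39, and the part of fat cells in these values was not tested. Every one of the 33 citrate cycle and respiratory chain genes had a ratio above 0, where 5656 of all 9860 genes did. The list's median was 0.37 (0.23 under quantile normalization), with 0 lower and 1 higher. That gene was Cox7a1, the muscle isoform of a cytochrome oxidase subunit, at 347, 205, 592 and 276 and 2.89-fold higher. Ldhb, the lactate dehydrogenase subunit of oxidative tissue, had 4615, 966, 3357 and 4758 and was 3.48-fold higher, where ischemia was the low array.

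Further enzymes and carriers past 2-fold were named after their values were seen. Fabp5, another fatty acid carrier, had 289.7, 410.4, 1094 and 249 and was 2.67-fold higher. Eci2, an isomerase of fatty acid oxidation, had 792, 549.98, 1272 and 671 and was 2.31-fold higher. G0s2, which inhibits the lipase of lipid droplets, had 2474, 1120.4, 2349.5 and 1351 and was 2.10-fold higher, so that ES came near sham. Tfrc, the transferrin receptor for iron, had 4744, 3756, 8581 and 3219 and was 2.29-fold higher, with its other probe set at 1.44. Alas1, the first enzyme of haem synthesis, had 646, 629, 1443 and 506 and was 2.29-fold higher. The remaining haem enzymes Alad, Urod, Uros, Cpox, Ppox and Fech lay between -0.24 and 0.61. Car4, a carbonic anhydrase on the capillary surface, had 95.6, 61.6, 179.7 and 61.7 and was 2.92-fold higher.

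Of 23 amino acid and nucleotide genes 2 were higher and 0 lower, with a median of -0.077. Ampd3, an AMP deaminase, had 419, 147, 341 and 381 and was 2.33-fold higher, with ischemia the low array, whereas the fast-fibre form Ampd1 was at -0.70. Got1, the cytosolic aspartate aminotransferase, had 1739, 1346, 2705 and 1552 and was 2.01-fold higher. Glycolysis and glycogen genes had a median of 0.07, or -0.088 under quantile normalization. Of 29, 1 was higher (Ldhb) and 1 lower, beside 2.33% and 0.811% of all genes. The lower gene was Gpcpd1, a phosphodiesterase of glycerophosphocholine, at 658, 1269, 415 and 907 and 3.06-fold lower, where its other probe set was at -0.28.

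Cell cycle genes were mostly dim: 14 of 27 were at the floor with ischemia and 4 with ES. Of 23 with a ratio 3 were higher and 1 lower, with a median of 0.48. Genes at the floor with ischemia alone can only have a ratio above 0, so this median is in part fixed by the floor. It was 0.8 with the floor at the 30th percentile and 0.25 at the 70th. Cdkn1a, the cell cycle inhibitor p21, had signals of 182, 207, 694 and 180.5 and was 3.35-fold higher, with its other probe set at 1.12. Stmn1, stathmin, which destabilises microtubules, had 175, 138, 359 and 172 and was 2.59-fold higher. Mki67, the proliferation marker, had 15.8, 40.5, 86.3 and 9.75 and was 2.13-fold higher, a call lost under loess normalization. Gadd45g, a stress-induced growth inhibitor, had 395, 371, 137 and 134 and was 2.71-fold lower, and here exercise was as low as ES. Its relative Gadd45a was at 0.84 and Gadd45b at -0.08.

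Imprinted genes of growth were picked out after their values were seen. Meg3, a long non-coding RNA from the same imprinted region as Dlk1, had 79.97, 103, 249 and 91.4 and was 2.42-fold higher, with its other probe set at 1.65. Plagl1, a zinc finger factor of the imprinted network, had 75.6, 158, 346 and 105 and was 2.19-fold higher. With Dlk1 and Igf2 above, ES was the highest array in all 4. H19, transcribed beside Igf2, was at 0.35, the inhibitor Cdkn1c at 0.90, Grb10 at 0.05 and Ndn at -0.25.

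The lowest ratio among genes above the floor on both arrays was that of Cish, a SOCS-family inhibitor that is induced by STAT5 downstream of growth hormone and cytokine receptors. Its signals were 292, 355, 60.5 and 99.2, so ES was 5.88-fold under ischemia and exercise was low as well. The STAT motif TTCNNNGAA was present in 7.67% of all windows, counted once because it reads the same on both strands, and Cish held 4 matches at -241, -230, -136 and -119. They lie in the following 160 bases of chr8:116850719-116850878 (plus strand, RefSeq, GRCr8), shown because they are grouped in pairs.
Cish: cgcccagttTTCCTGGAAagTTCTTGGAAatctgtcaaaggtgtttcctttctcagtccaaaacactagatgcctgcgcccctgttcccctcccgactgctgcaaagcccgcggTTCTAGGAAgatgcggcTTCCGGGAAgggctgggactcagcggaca
Other genes of this pathway were mostly within 2-fold: of 21 with a ratio 1 was higher (Igf2) and 1 lower (Cish), with a median of -0.054. The window of Igf2 was searched as well and held no STAT match. Stat5b was at -0.80, Stat5a at -0.21, the hormone receptor Ghr at -0.05 with its other probe set at -1.57, and Socs2 at -0.35 as a bound. Igf1 had 567, 623, 1096 and 423 and was 1.76-fold higher, short of 2-fold. Socs1 and Socs3 were at or under the floor on both arrays.

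Among the lower genes, several act in the energy sensing and ion handling of fast glycolytic fibres. Prkag3, the gamma subunit of AMP-activated kinase found in fast muscle, had signals of 1539, 2784, 842 and 2100.2 and was 3.31-fold lower. Prkaa2, the muscle alpha subunit, had 1661, 1679.7, 837 and 1356 and was 2.01-fold lower, a call lost under quantile and loess normalization. Of 8 genes of the kinase family these 2 were lower and 0 higher, with a median of 0.051 that became -0.18 with the floor at the 30th percentile. The other subunits were at 0.11 for Prkaa1, 0.78 for Prkab1, -0.64 for Prkab2, 0.20 for Prkag1 and -0.01 for Prkag2, so both lower subunits are forms enriched in skeletal muscle. Mss51, a mitochondrial zinc finger protein of fast muscle, had 227, 360.1, 98.5 and 328 and was 3.66-fold lower. ES was the lowest array in each of the 3 lower genes. Of 19 mitochondrial gene regulators these 3 were the lower ones and 0 were higher, with a median of 0.056. Ppargc1a, the coactivator that drives mitochondrial genes, had 308, 249.97, 334 and 467, a 1.33-fold difference with other probe sets at 0.093 and 0.84.

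Atp1b2, a sodium pump beta subunit, had 1513, 1996, 687 and 1852 and was 2.91-fold lower, with its other probe set at -0.67. The sister subunit Atp1b1 was at 0.93 with its other probe set at 1.33, the opposite side. Of 15 genes on the sodium pump and channel list 0 were higher and 1 lower, with a median of -0.27. Atp1b4, which was higher, and Kcnj12, which was lower, are described below and are not on that list. The next genes, of varied function, were named after their values were seen, so they do not make up a group of their own. Kcnj12, an inward rectifier potassium channel, had 243, 273, 119.6 and 227 and was 2.28-fold lower. Slc25a25, a mitochondrial carrier of ATP-magnesium, had 751, 533, 206 and 302 and was 2.58-fold lower, with exercise also low. Acyp2, the muscle acylphosphatase, had 2043, 3118, 1308 and 2168 and was 2.38-fold lower. Glul, glutamine synthetase, had 2066, 2417, 994 and 2099.6 and was 2.43-fold lower. Eef2k, the kinase that halts translation elongation, had 677, 776, 365 and 587 and was 2.13-fold lower. Asb11, a muscle ubiquitin ligase adaptor, had 924, 870.2, 412 and 864 and was 2.11-fold lower, and Dusp26, a phosphatase, had 1221, 989.7, 489 and 1184 and was 2.02-fold lower. ES was the lowest of the 4 arrays in all of these. Atrophy genes did not pass 2-fold: over 17 the median was -0.084, with the ligases Trim63 at 0.15 and Fbxo32 at -0.45.

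Clock genes differed in direction. Dbp, a transcriptional activator driven by the clock, had signals of 125, 118, 368 and 297 and was 3.12-fold higher, with exercise also high. Nfil3, the repressor that competes for the same sites, had 500.3, 420.1, 190.5 and 337 and was 2.21-fold lower. Rora, a nuclear receptor that activates Bmal1, had 173, 259.8, 129 and 191 and was 2.01-fold lower. It is not on the clock list and was named after its values were seen. These 3 genes lay on opposite sides with ES, and the time of day of sampling is not given. Of 15 genes on the clock list 1 was higher (Dbp) and 1 lower (Nfil3), beside 2.33% and 0.811% of all genes. The median was -0.16, Per2 being at 0.82 and Hlf at -0.52.

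Genes of tendon and matrix past 2-fold were mostly lower. All 7 tendon markers had ratios below 0, with 0 higher, 3 lower and a median of -0.86. Their summed signal was 1491 with sham, 2398 with ischemia, 1284 with ES and 2210.2 with exercise, so the ES array held least. Tnmd, tenomodulin, the membrane protein that defines tendon cells, had 138, 333, 108 and 194 and was 3.09-fold lower. Fmod, fibromodulin, which governs collagen fibril width, had 351, 678, 234 and 524 and was 2.90-fold lower. Chad, chondroadherin, had 35.5, 68.1, 7.38 and 97.97 and was at least 2.26-fold lower. Scx, the tendon transcription factor, was at -0.48 and Comp at -0.35. How much tendon or fascia entered each muscle piece is not given, and the part of it in the matrix values was not tested.

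Of 31 extracellular matrix genes 1 was higher and 3 lower, beside 2.33% and 0.811% of all genes, with a median of -0.029. Col12a1, a fibril-associated collagen of tendon and fascia, had 170.2, 184, 68.98 and 152 and was 2.67-fold lower. Tnc, tenascin C of healing and tendon tissue, had 69.5, 215, 101 and 83.8 and was 2.14-fold lower. P4ha3, a prolyl hydroxylase for collagen, had 22.9, 64.7, 27.8 and 39.04 and was at least 2.15-fold lower. For Tnc and P4ha3 ischemia was the array that stood high, and ES was near the others. Eln, elastin, had 42.7, 34.3, 68.8 and 29.8 and was 2.003-fold higher, at the edge of the limit and with its other probe set at 0.15. The fibrillar collagens Col1a1, Col1a2 and Col3a1 were at -0.58, -0.52 and 0.05. Of 15 fibroblast markers 0 passed 2-fold, with a median of -0.17 and a summed signal of 32229 with ischemia and 27591 with ES.

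The following Wnt pathway genes were picked out after their values were seen, and others of the pathway did not pass 2-fold. Sfrp4, a soluble Frizzled-related inhibitor, had 307, 867, 321 and 308 and was 2.70-fold lower. Sfrp2, of the same family, had 41.3, 164, 79.4 and 22.9 and was 2.06-fold lower, with its other probe set at -1.23. Wif1, which binds Wnt proteins, had 39.2, 89.4, 40.2 and 60.5 and was 2.23-fold lower. In these 3 the ischemia array was above both sham and exercise. Wnt4, a secreted Wnt ligand, had 182, 219, 81.4 and 222 and was 2.69-fold lower, and Frat2, a binding partner of GSK3, had 897, 1351, 599.9 and 763 and was 2.25-fold lower, with ES the lowest array in both. Sfrp1 was at -0.23, Dkk3 at -0.63 and Sfrp5 at 0.75.

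Several further higher genes belong to no list above. Klk1, tissue kallikrein, which releases vasodilator kinins, had 19.9, 36.3, 241 and 11.3 and was 6.63-fold higher. It was 1 of 4 kallikrein and angiotensin genes with a ratio, of which Ace was at 0.97, and the kinin receptor genes Bdkrb1 and Bdkrb2 were at or under the floor on both arrays. Ints1, of the Integrator complex, had 141, 114, 784 and 593 and a ratio of 6.88-fold, against a log2 ratio of only 0.31 from another probe set. Crym, a thyroid hormone binding protein, had 167, 78.4, 261 and 363 and was 3.33-fold higher. Atp1b4, a muscle protein of the pump beta family, had 123, 199, 636 and 92.9 and was 3.19-fold higher. Cyp4b1, a cytochrome P450, had 134, 89.1, 283 and 111 and was 3.18-fold higher, and Tp53i11 had 37.5, 47.4, 150.3 and 44.2 and was 3.17-fold higher. ES was the highest array in Klk1, Ints1, Atp1b4, Cyp4b1 and Tp53i11, and exercise was the highest in Crym.

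Besides Btnl9, Pcdh17, Ccl5 and others given above, lower bounds in which ischemia was at the floor included Hpdl at 46.7, 29.9, 158 and 40.5, at least 5.24-fold higher, and Rad54l2 at 48.9, 29.6, 90.2 and 54.1, at least 2.996-fold higher. Klhl4, Tec, Fndc3c1, Arhgap27 and Sez6l2 were at least 2.86, 2.79, 2.78, 2.61 and 2.60-fold higher, with ES signals between 78.2 and 86.1. The brightest of these on the ES array was Hpdl at 158, so these folds rest on dim signals. Cidea, a lipid droplet protein of brown fat, had 38.9, 24.5, 65.8 and 81.8 and was at least 2.19-fold higher, the only adipocyte marker past 2-fold of 6. Junb, an AP-1 subunit, had 38.4, 43.3, 87.4 and 52.7 and was 2.02-fold higher, a call lost under quantile and loess normalization. It was the only immediate early gene past 2-fold of 19, with a median of 0.17, and Fos had 719, 127, 115 and 298 and a log2 ratio of -0.15.

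Other lower genes had varied roles. Tmem100, a membrane protein of the BMP pathway in vessels, had 194, 282, 74.5 and 212 and was 3.78-fold lower, unlike the endothelial markers. Ttc7a, a scaffold of lipid kinase at the membrane, had 254, 348, 111 and 243 and was 3.12-fold lower. Dyrk2, a protein kinase, had 712, 772, 248 and 491 and was 3.11-fold lower. ES was the lowest array in these 3. Mllt3, a reader of histone acylation in the elongation complex, had 647, 689, 235 and 578 and was 2.94-fold lower. Mnda, an interferon-inducible nuclear protein of myeloid cells, had 60.6, 257, 95.2 and 94.2 and was 2.70-fold lower, with ischemia the array that stood high. Paip1, which aids translation initiation, had 524, 621, 238 and 513 and was 2.61-fold lower. At the floor with ES, Adgrb2, an adhesion receptor, had 103, 150.2, 6.47 and 139.9 and was at least 4.99-fold lower. Tsn, the nucleic acid binding protein translin, had 87.1, 84.1, 28.6 and 56.9 and was at least 2.79-fold lower. Cyp1b1, at 56.5, 65.2, 25.4 and 61.2, and Gas2, at 48.5, 63.5, 29.9 and 42.9, were at least 2.17-fold and 2.11-fold lower, both from dim signals.

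Genes often measured in stimulated muscle were partly within 2-fold. Pdk4, which blocks pyruvate oxidation, had 2232, 3570.4, 5232 and 4569.9 and was 1.47-fold higher, with its other probe set at 0.37. Hspa1a, the inducible heat shock protein, had 443, 177, 209 and 580.1 and a log2 ratio of 0.24, and Hspb7 was the only one of 18 chaperone genes past 2-fold. Mstn, myostatin, was below the floor on every array, so it has no ratio. Antioxidant genes had 0 of 19 past 2-fold and a median of 0.014, or -0.007 under quantile normalization.

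**Figure D5:**
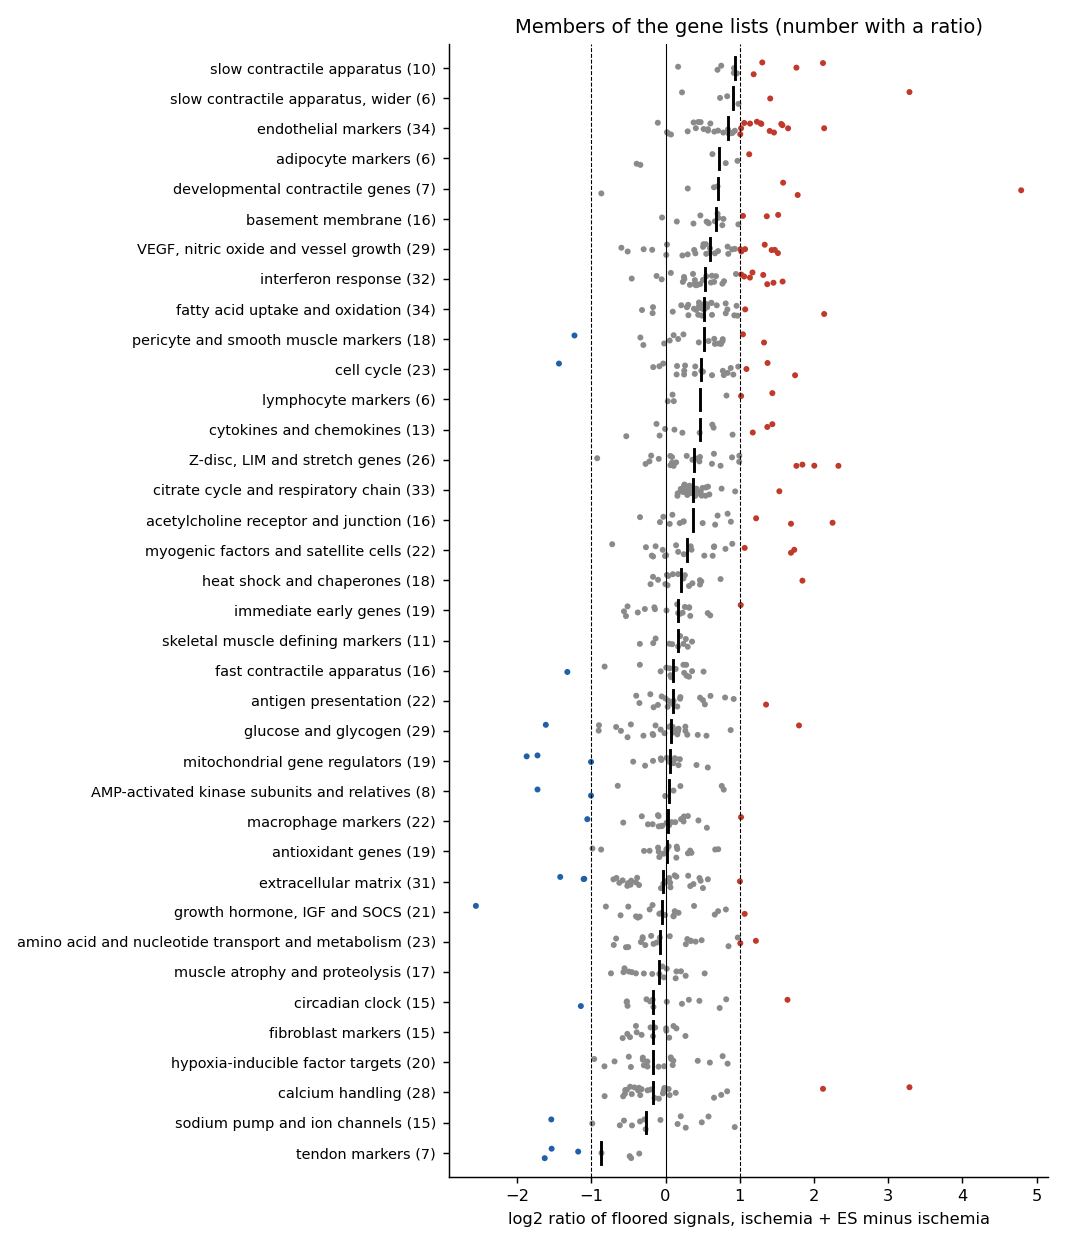
Log2 ratio of ES over ischemia for each member with a ratio of the gene lists, ordered by median; a point is 1 gene on 1 array per group, the short bar is the list's median, the dashed lines mark 2-fold, and red and blue points are past it. Slow contractile, endothelial and basement membrane genes lie mostly right of 0 and tendon markers left of it, while fast contractile, matrix and macrophage genes lie around 0.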

How the data were processed

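Rat skeletal muscle of 4 groups was measured on 1 array each, and groups were taken from the sample titles. The authors deposited 1 linear intensity per probe set and array, and MAS5 is named without a version in the submitters' processing notes. The 2% trimmed mean was 150.07 on each array, so a difference in total mRNA between samples cannot be seen. RNA was isolated with a fibrous-tissue column kit and labelled from the 3′ end, per the labels' protocols. Detection calls, probe signals and the genome build behind the probes are not stated there or in the deposited table.

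The array holds 31099 probe sets. The platform's 2016 annotation gave 1 gene symbol for 20832 of them, more than 1 for 436 and no symbol for 9831, 57 of these being controls. For 20764 the gene identifier was found in RefSeq (GRCr8), and 0 symbols differed. Signals were rescaled to a common trimmed mean and floored at the 50th percentile, 30.1, before the log2 ratio was taken. The brightest probe set over the 4 arrays stood for a gene. Of 14218 genes, the 9860 above the floor on either array had a ratio. Text gives deposited signals, including those under the floor, and summed signals of a list are sums of these. With 1 array per group no p-value was computed, and the number of arrays limits the precision.

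The 41 gene lists, their 854 genes, the comparison and the genes described were chosen with earlier results of these data known, so no list supports a direction independently. The naming rule took the 20 highest and 15 lowest ratios, the 10 and 6 largest bounds, up to 6 members of each list past 2-fold and 10 fixed genes. Every gene past 2-fold could be named, and those named outside these sets were chosen after their values were seen. The 3 genes past 2-fold with LOC symbols were counted and not named. Alternatives were quantile and cyclic loess normalization (limma 3.58.1 in R 4.3.3), floors at the 30th and 70th percentiles, the mean of all probe sets, omission of the 244 probe sets ending in _x_at, and limits of 1.5-fold and 3-fold. Calculations used Python 3.11.15, numpy 2.4.6 and pandas 2.3.3 and were tested on simulated data. Promoter windows are 250 bases before RefSeq starts (GRCr8), searched for 4 motifs.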

Additional observations from a re-analysis of the deposited data

Results flagged for a closer look

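Probe sets without a gene symbol were not part of the gene comparison, and 4 of the 3645 with a ratio were more than 3-fold higher with ES than with ischemia, while 0 were more than 3-fold lower. Signals are in the order sham, ischemia, ES and exercise. Probe set 1374015_at had 61.7, 66.5, 341 and 31.2 (5.13-fold). Probe set 1370856_at had 1334, 904, 2758 and 1609.5 (3.05-fold). Probe set 1378171_at had 74.3, 44.5, 138 and 65.1 (3.09-fold), and 1387902_a_at had 32.4, 62.6, 192 and 17.1 (3.07-fold). ES was the highest array in all 4, as it was for most of the named genes past 2-fold. Past 2-fold, 53 unnamed probe sets were higher and 41 lower.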

How the results depend on the processing

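The counts of genes past 2-fold, 230 higher and 80 lower, were 198 and 95 under quantile normalization, 199 and 85 under loess, 161 and 64 with the mean of all probe sets, and 229 and 80 without the probe sets ending in _x_at. They moved by more than 1.5 times with the floor at the 30th percentile (448 and 187), at the 70th (107 and 48), with a 1.5-fold limit (989 and 476) and with a 3-fold limit (25 and 9). A lower floor lets dimmer genes pass and a higher one removes them, by construction. Of the genes called in the text's setting, 195 higher and 79 lower were also called under quantile normalization and 194 and 77 under loess. Of 307 called genes with a symbol other than LOC, 115 higher and 44 lower were past 2-fold in each of these alternatives that kept the 2-fold limit and gave a value, and 0 changed direction. The median log2 ratio of all genes lay between 0.029 and 0.069.

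Of the 144 genes described with a fold past 2-fold, the mean of all probe sets ended the call of 28, the floor at the 70th percentile of 18, loess of 10 and quantile normalization of 8, as named above, and 94 kept it in each alternative that gave a value. Of 41 list medians 7 changed sign in some setting, all of them between -0.18 and 0.17, and 34 did not. No replicate could be left out and no paired analysis was possible because each group has 1 array. MAS5 signals of dim genes are noisy, so the genes under 4 times the floor and the bounds are the least certain, and none of the differences has a measured error.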
